A study of Mus musculus with 2 samples.

Results

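The genes described here are 10 antioxidant and glutathione response genes, chosen by symbol from the 31053 features of the count tables and followed by diet, by mitochondrial share, by liver zone and by class of cell. They are the glutathione S-transferases Gstp1, Gsta3 and Gstm1, the quinone reductase Nqo1, both subunits of glutamate-cysteine ligase (Gclc and Gclm), heme oxygenase 1 (Hmox1), thioredoxin reductase 1 (Txnrd1), sulfiredoxin 1 (Srxn1) and the transcription factor gene Nfe2l2. All 10 were found in both libraries. The data were droplet single-cell RNA counts of liver cells from C57BL/6 mice that received chow or a NASH diet, rich in fructose, fat and cholesterol, for 6.5 weeks. No source used here states the sex or age of the mice, or how many mice went into a library. Cells were freed with collagenase and separated on Percoll density gradients before capture.

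Nfe2l2 encodes NRF2, a transcription factor that KEAP1 holds in the cytoplasm and marks for degradation until oxidants or electrophiles modify KEAP1. Freed NRF2 pairs with small MAF proteins on antioxidant response elements and raises the transcription of genes for glutathione synthesis, conjugation, quinone reduction and the thioredoxin system. In the liver these enzymes detoxify drugs and reactive lipids, and several glutathione S-transferases are known to be most abundant around the central vein.

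There was 1 library per diet, so no difference between diets has a replicate check, no p-value is given, and diet cannot be told apart from animal, digestion or capture. All intervals are 95% intervals for counting error only, exact Poisson for a level and exact binomial for a ratio or a share. The chow library held 7359 barcodes and 71635757 UMIs (molecules counted once by their identifier), and the NASH diet library held 5881 barcodes and 39440182 UMIs. Both libraries held 69 barcode sequences in common, and 1 of these was hepatocyte-like in both. Hepatocyte-like barcodes had at least 5000 nuclear-encoded UMIs, at most 30% mitochondrial UMIs and at least 3% of UMIs in 10 hepatocyte markers such as Alb and Ttr. There were 1953 of them under chow and 1021 under the NASH diet, with medians of 21239 and 16069 nuclear-encoded UMIs and median mitochondrial shares of 18.5% and 23.6%. Barcodes with at least 3 markers of another class and at least 0.5% of UMIs in them were left out. Hepatocyte markers took 9.80% and 11.4% of the UMIs of hepatocyte-like barcodes, and 14 endothelial and 13 macrophage markers took at most 0.00118% each. The same markers set the gate, so these shares are no independent check of purity.

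The sequences before the transcription start are shown for Gsta3, Gstm1 and Srxn1, which were higher in the NASH diet library in every zone, and for Gclm, the ligase subunit that holds an antioxidant response element core. Nfe2l2 was also higher in every zone, but no base of its window was left to show. Each runs 5′ to 3′ on the gene's strand and ends at the base before the RefSeq start site, except Srxn1, where 8 bases that the GENCODE annotation places in the first exon are left out. Capitals mark matches to TGACNNNGC, the antioxidant response element core, or to TGAGTCA, an AP-1 type core, searched on both strands, where the reverse complement counts as a match. The sequences are from RefSeq on GRCm38.p6: Gsta3 on the plus strand of chr1:21240335-21240584, Gstm1 on the minus strand of chr3:108017974-108018223, Gclm on the plus strand of chr3:122245307-122245556 and Srxn1 on the plus strand of chr2:152105274-152105515.
Gsta3: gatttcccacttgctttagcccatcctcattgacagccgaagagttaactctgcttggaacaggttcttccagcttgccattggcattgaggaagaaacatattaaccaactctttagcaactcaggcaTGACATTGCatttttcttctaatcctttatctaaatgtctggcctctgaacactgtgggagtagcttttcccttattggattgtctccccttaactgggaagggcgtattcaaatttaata
Gstm1: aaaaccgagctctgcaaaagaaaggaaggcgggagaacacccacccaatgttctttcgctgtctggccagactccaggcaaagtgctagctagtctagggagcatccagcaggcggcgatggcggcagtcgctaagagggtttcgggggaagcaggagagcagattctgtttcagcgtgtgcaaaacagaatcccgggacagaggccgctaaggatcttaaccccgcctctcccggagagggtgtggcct
Gclm: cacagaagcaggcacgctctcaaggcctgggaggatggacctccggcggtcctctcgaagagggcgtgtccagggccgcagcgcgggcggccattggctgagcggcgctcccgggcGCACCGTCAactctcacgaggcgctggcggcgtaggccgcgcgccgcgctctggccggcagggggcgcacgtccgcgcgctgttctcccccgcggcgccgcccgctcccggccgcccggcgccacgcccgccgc
Srxn1: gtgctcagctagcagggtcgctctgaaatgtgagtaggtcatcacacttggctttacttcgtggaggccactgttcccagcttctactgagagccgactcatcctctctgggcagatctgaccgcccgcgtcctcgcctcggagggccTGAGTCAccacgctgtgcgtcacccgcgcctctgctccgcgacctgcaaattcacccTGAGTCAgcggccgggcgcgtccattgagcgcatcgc

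Gsta3 holds the element core 121 bases before its start, Gclm holds it 134 bases before its start on the opposite strand, and Srxn1 holds the AP-1 type core 102 and 45 bases before its start. The Gstm1 window shown holds neither. The 8 members with an entry were represented by 11 windows of 250 bases. Of these 11 windows, 4 held the element core and 2 held the AP-1 type core, each window from a different member. In the windows with the Nfe2l2 and Txnrd1 matches, 250 and 249 of 250 bases lie from an annotated exon base onward. In the Gstp1 window this holds for the last 73 bases, and its AP-1 type match begins 74 bases before the start. Of all 32851 windows of this length, 10.2% held the element core and 4.46% held the AP-1 type core. A match is a description of letters in this window, and a window without one says nothing about binding. Other spellings of the element were not searched. Gclc and Hmox1 had no entry.

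In hepatocyte-like barcodes, Srxn1, Gstm1, Nfe2l2 and Gsta3 were higher in the NASH diet library, while both ligase subunits, Txnrd1, Hmox1, Gstp1 and Nqo1 differed less, at 0.856-fold to 1.17-fold. A level is given in CPM, the UMIs of the gene per 1000000 nuclear-encoded UMIs of the same barcodes, and a log2 ratio is of the NASH diet over the chow level after adding 1 CPM to each. The median log2 ratio of the 8273 genes tested, those with a mean level of at least 5 CPM, was 0.17 rather than 0, and a gene at that ratio sat at the middle of all genes; relative to it Srxn1 was at 0.92, Gstm1 at 0.80, Nfe2l2 at 0.65, Gsta3 at 0.54, Gclm at 0.03 and Gclc at -0.33. Only Srxn1 was past 2-fold higher, 1 of 10 members against 3.40% of genes tested, and 0 of 10 were past 2-fold lower, against 2.08%. Of the 10 members, 9 passed the minimum level, all but Nqo1. The median log2 ratio of the 10 members was 0.19, close to that of all genes.

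Srxn1, the enzyme that repairs over-oxidised peroxiredoxins, stood at 20.8 CPM in the chow library (interval 19.5 to 22.3) and at 45.4 CPM in the NASH diet library (42.3 to 48.7). The ratio was 2.18-fold (1.98 to 2.4), a log2 ratio of 1.09. Nfe2l2 stood at 29.0 CPM (27.4 to 30.7) and 51.9 CPM (48.6 to 55.4), a ratio of 1.79-fold (1.64 to 1.95). For both genes the intervals of the libraries were far apart.

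Among the glutathione S-transferases, which join glutathione to electrophiles, Gstm1 of the mu class stood at 568 CPM under chow and 1116 CPM under the NASH diet, a ratio of 1.96-fold (1.93 to 2). Gsta3 of the alpha class stood at 683 and 1117 CPM, a ratio of 1.64-fold (1.61 to 1.67). Gstp1 of the pi class stood at 117 and 132 CPM, a log2 ratio of 0.17, equal to the median of all genes. After thinning each barcode to 5000 UMIs, a Gstm1 UMI was found in 80% of the hepatocyte-like barcodes under chow and 95.1% under the NASH diet, and a Gsta3 UMI in 79.7% and 92.2%. Without thinning the shares were 98.0% and 99.6% for Gstm1 and 97.8% and 99.2% for Gsta3. Thinned to 1000 UMIs, a Gsta3 UMI was found in 41.3% and 55.8% of hepatocyte-like barcodes and in 13.0% and 6.67% of the endothelial-like barcodes deep enough to thin (46 and 45), whose class had median depths of 4412 and 4726 nuclear-encoded UMIs. The endothelial-like shares rest on 6 and 3 barcodes, with intervals of 4.94 to 26.3% and 1.40 to 18.3%. The Gsta3 level in endothelial-like barcodes cannot be told apart from hepatocyte RNA, as given further on. At equal depth, the share of hepatocyte-like barcodes with a UMI of either gene was higher in the NASH diet library. For Srxn1 the shares at 5000 UMIs were 10.1% and 18.3%, and for Nfe2l2 14.3% and 22.9% (32.5% and 44.5%, and 42.5% and 52.5%, without thinning).

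Gclc, the catalytic subunit of the ligase that sets the rate of glutathione synthesis, stood at 254 CPM in the chow library (249 to 259) and at 227 CPM in the NASH diet library (220 to 234). This was the only member whose whole interval of the ratio, 0.893-fold (0.861 to 0.926), lay under 1. Its modifier subunit Gclm stood at 294 and 338 CPM, 1.15-fold (1.11 to 1.19), a log2 ratio of 0.20 that was close to the median of all genes. Txnrd1, which keeps thioredoxin reduced, stood at 109 and 106 CPM (0.970-fold, 0.918 to 1.02). The subunits of the ligase therefore lay on either side of 1, with neither past 2-fold.

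Hmox1, which opens the heme ring, was sparse in hepatocyte-like barcodes, with 557 chow and 201 NASH diet UMIs, or 13.4 and 11.5 CPM (0.856-fold, 0.725 to 1.01). A single NASH diet barcode held 25 of the 201 UMIs. Nqo1, which reduces quinones with NADPH, was rarer still, with 146 and 72 UMIs, or 3.51 and 4.11 CPM (1.17-fold, 0.870 to 1.56). A difference in Nqo1 was not detectable at this depth.

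**Figure D1:**
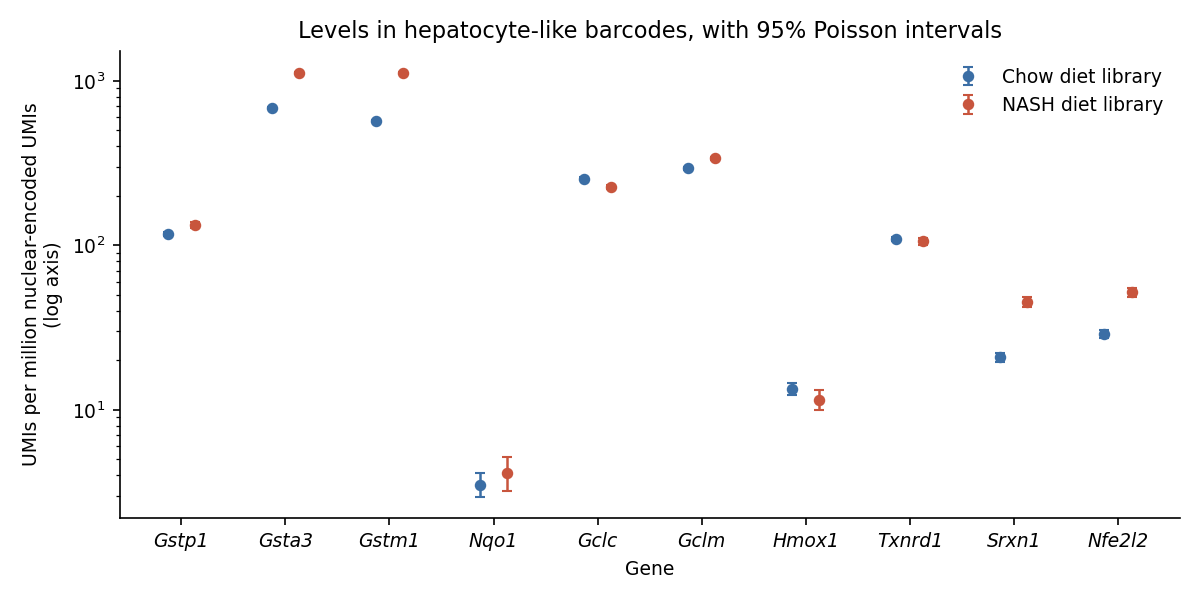
Level of each of the 10 genes in hepatocyte-like barcodes of the chow (1953 barcodes) and NASH diet (1021 barcodes) libraries, in CPM on a log axis; bars are 95% Poisson intervals. Gsta3, Gstm1, Srxn1 and Nfe2l2 lie higher in the NASH diet library, and the other genes lie close together; heights are not compared between genes.

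Transcript similarity limits the Gstp1 values. Of the 451 windows of 50 bases in the last 500 bases of its longest annotated transcript, 75.2% also occur in another gene's transcripts, and for the neighbouring Gstp2 the share was 88.9%. Reads that match both are usually not counted for either, so Gstp1 levels are uncertain as levels, and the split of reads between Gstp1 and Gstp2 was not tested. Gstp2 itself had 28 chow and 13 NASH diet UMIs in hepatocyte-like barcodes. For Gstm1 the share was 0.887%, and for the other 8 members it was 0.

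By position, in the GRCm38 annotation of GENCODE, Gstp1 (ENSMUSG00000060803) lies on the minus strand of chr19:4035407-4037985, Gsta3 (ENSMUSG00000025934) on the plus strand of chr1:21240589-21265661 and Gstm1 (ENSMUSG00000058135) on the minus strand of chr3:108012255-108017973. Srxn1 (ENSMUSG00000032802) lies on the plus strand of chr2:152105516-152111376 and Nfe2l2 (ENSMUSG00000015839) on the minus strand of chr2:75675513-75704641. Hmox1 (ENSMUSG00000005413) lies on the plus strand of chr8:75093621-75100589, and Nqo1 (ENSMUSG00000003849) on the minus strand of chr8:107388225-107403206. Gclc (ENSMUSG00000032350) lies on the plus strand of chr9:77754535-77794485, Gclm (ENSMUSG00000028124) on the plus strand of chr3:122245557-122270732 and Txnrd1 (ENSMUSG00000020250) on the plus strand of chr10:82833951-82897712. All 10 are protein-coding.

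The mitochondrial share of UMIs, in common use as a measure of barcode quality, went with the levels of several members, and of Gstp1 most. Hepatocyte-like barcodes with at most 5% mitochondrial UMIs held 670 CPM of Gstp1 in the chow library (114 barcodes) and 705 CPM in the NASH diet library (74 barcodes). The levels were 129 and 169 CPM at 10 to 15%, 106 and 102 at 15 to 20%, 66.0 and 90.2 at 20 to 25%, 39.7 and 46.8 at 25 to 30%, and 37.4 and 41.5 at 30 to 50%. The last range holds 104 chow and 185 NASH diet barcodes that met the depth and marker limits but lay above the mitochondrial limit, so they are not among the hepatocyte-like barcodes counted earlier. The level at 0 to 5% was 16.9-fold that at 25 to 30% in the chow library (13.5 to 21.2) and 15.1-fold in the NASH diet library (13.1 to 17.4). This was the highest ratio of all 7946 genes tested in the chow library and of all 8006 tested in the NASH diet library. Gstp1 thus differed far more between ranges than between diets, where its ratio lay between 0.960-fold and 1.59-fold in all 7 ranges. Barcodes with hepatocyte markers but under 1000 nuclear-encoded UMIs also held more of it, 387 and 650 CPM, 3.30-fold and 4.91-fold the hepatocyte-like level.

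Across that same contrast of 0 to 5% over 25 to 30%, 2 of 10 members were past 2-fold higher in the chow library (Gstp1 and Gsta3) and 0 lower, against 47.8% of genes tested past 2-fold in either direction. In the NASH diet library 1 was higher (Gstp1) and 2 were lower (Gclc and Nfe2l2), against 52.2%. These shares of members lie under the share of all genes, so passing 2-fold was usual in this contrast for any gene. Gclc stood at 142 CPM at 0 to 5% and 279 at 25 to 30% in the chow library, and at 78.2 and 235 in the NASH diet library. Barcodes with 0 to 5% also held fewer hepatocyte marker UMIs, 5.07% in the chow and 8.19% in the NASH diet library against 9.75% and 12.5% at 25 to 30%. The part of barcode quality in the Gstp1 gradient was not tested.

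Between libraries at matched mitochondrial share, Srxn1 was higher in every range from 10 to 50%, while the Gsta3 and Gstm1 ratios ran from above 2-fold to below 1. Srxn1 was 3.28-fold higher in the NASH diet library at 10 to 15% (2.04 to 5.12), 2.4-fold at 15 to 20% (1.99 to 2.87), 1.88-fold at 20 to 25% (1.59 to 2.24), 2.15-fold at 25 to 30% (1.57 to 3) and 2.14-fold at 30 to 50% (1.32 to 3.62). At 0 to 5% its ratio was 1.34-fold, with an interval of 0.811 to 2.23 that includes 1. Nfe2l2 was 2.44-fold higher at 15 to 20% (2.09 to 2.84), 1.51-fold at 20 to 25% (1.29 to 1.78), 1.56-fold at 25 to 30% (1.19 to 2.06) and 2.11-fold at 30 to 50% (1.36 to 3.38), and 0.777-fold at 0 to 5% (0.465 to 1.28). Both genes were thus higher in the NASH diet library in each range above 10%, and not detectably so in the barcodes with least mitochondrial RNA.

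Gsta3 stood at 545 CPM under chow and 1352 under the NASH diet at 15 to 20% (2.48-fold, 2.4 to 2.57), at 809 and 1015 at 20 to 25% (1.25-fold, 1.21 to 1.3) and at 918 and 923 at 25 to 30% (1.01-fold, 0.954 to 1.06). At 0 to 5% it stood at 2422 and 1522, lower in the NASH diet library (0.628-fold, 0.594 to 0.664). Gstm1 followed the same course, from 472 and 1425 CPM at 15 to 20% (3.02-fold, 2.92 to 3.12) to 809 and 920 at 25 to 30% (1.14-fold, 1.08 to 1.2), with 1543 and 1243 at 0 to 5% (0.806-fold, 0.755 to 0.859). In the chow library both genes were higher with more mitochondrial RNA from 15% up, and in the NASH diet library both were lower.

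The zones were spread over these ranges in opposite ways in the libraries. Pericentral barcodes made up 22.7% of the chow barcodes at 15 to 20% and 59.9% at 25 to 30%, and 52.8% and 26.2% of the NASH diet barcodes. The ratios by range therefore compare unlike mixtures of zones for genes that differ between zones, and they are given by zone and range together further on.

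Members past 2-fold by range, in either direction, were 0 of 10 at 0 to 5% against 11.0% of genes tested, 4 at 5 to 10% against 45.9%, and 6 at 10 to 15% against 21.1%. The counts were 6 at 15 to 20% against 7.57%, 0 at 20 to 25% against 5.17%, 1 at 25 to 30% against 7.45% and 3 at 30 to 50% against 10.9%. The range of 5 to 10% rests on 10 chow and 21 NASH diet barcodes, and that of 10 to 15% on 28 NASH diet barcodes, of which 75.0% were pericentral against 17.8% in the chow library. In that range 25 of 50 Hmox1 UMIs of the NASH diet library came from 1 barcode.

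**Figure D2:**
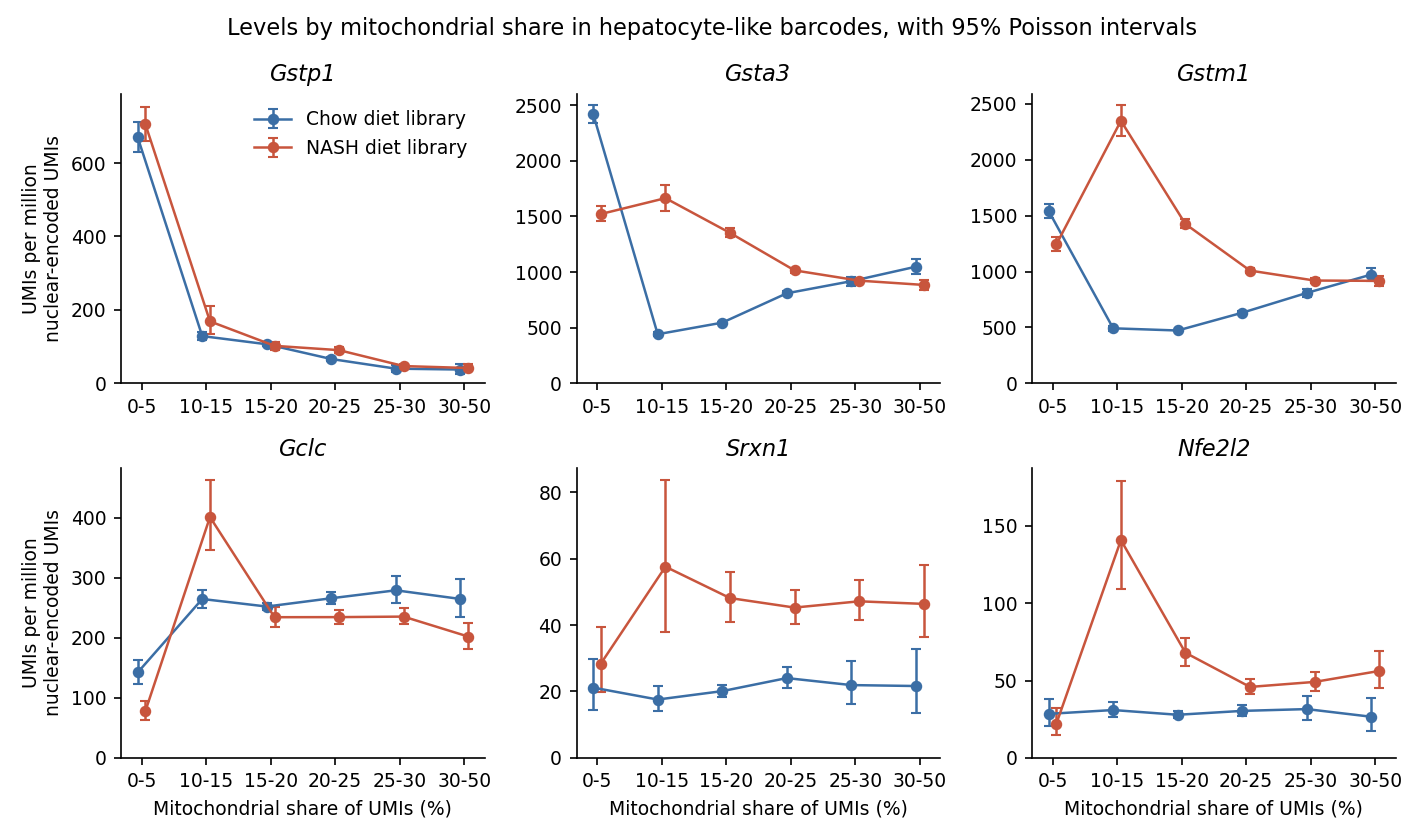
Levels of 6 genes in barcodes that met the hepatocyte depth and marker limits, by mitochondrial share of UMIs up to 50%, in unequal ranges and without the thinly filled range of 5 to 10%, in CPM; points are libraries and bars 95% Poisson intervals. Gstp1 drops from 670 and 705 CPM at 0 to 5% to 39.7 and 46.8 at 25 to 30%, and Gsta3 stands at 918 and 923 CPM at 25 to 30%, where Srxn1 stands at 21.9 and 47.2.

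Hepatocytes differ along the path of blood from the portal to the central vein, and each library's hepatocyte-like barcodes were cut into 3 equal parts by a score of 14 pericentral markers, such as Glul and Cyp2e1, against 14 periportal ones, such as Cyp2f2 and Hal. No member is among these markers. Gsta3 and Gstm1 were higher in the pericentral part in both libraries, and they were the 2 of 10 members past 2-fold over the periportal part in each, against 4.41% of genes tested in the chow and 6.19% in the NASH diet library. In the chow library Gsta3 stood at 1304 CPM in the pericentral, 501 in the middle and 256 in the periportal part, a pericentral level 5.10-fold the periportal one (4.92 to 5.28), which ranked 62 of 8155 genes. In the NASH diet library it stood at 1948, 719 and 465 CPM, a ratio of 4.19-fold (4.01 to 4.38). Gstm1 stood at 938, 457 and 317 CPM in the chow library (2.96-fold, 2.86 to 3.06) and at 1718, 812 and 661 in the NASH diet library (2.6-fold, 2.5 to 2.7). The slope kept its direction in both diets for both genes.

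Txnrd1 was 1.42-fold higher in the pericentral than the periportal part in the chow library (1.32 to 1.52) and 1.34-fold in the NASH diet library (1.2 to 1.5), and Srxn1 was 1.33-fold (1.13 to 1.57) and 1.29-fold (1.09 to 1.55). Nfe2l2 was 1.2-fold higher in the chow library (1.05 to 1.38) and 1.81-fold in the NASH diet library (1.53 to 2.14). Gclm was 1.19-fold and 1.12-fold higher, while Gclc was 0.966-fold and 1.05-fold, with intervals that include 1, and lowest in the middle part in both libraries. Gstp1 was lower in the pericentral than the periportal part, 0.771-fold (0.717 to 0.830) in the chow and 0.744-fold (0.657 to 0.842) in the NASH diet library. The pericentral level was 0.672-fold that of the middle part in the chow library (0.626 to 0.722) and 0.313-fold in the NASH diet library (0.282 to 0.348), at 74.3 against 237 CPM. Among NASH diet barcodes with 20 to 30% mitochondrial UMIs those levels were 47.9 and 79.2 CPM. Nqo1 was 1.65-fold (1.09 to 2.51) and 1.9-fold (1.05 to 3.56) higher in the pericentral part, on 64 and 41 UMIs there, and Hmox1 1.32-fold (1.06 to 1.63) and 1.66-fold (1.16 to 2.4). In the NASH diet library the Hmox1 ratio was 9.60-fold at 10 to 20% mitochondrial share (2.54 to 81.1), on 59 and 2 UMIs. At 20 to 30% it was 0.910-fold (0.573 to 1.44), so its direction was not kept. In the chow library it was 1.27-fold (0.966 to 1.66) and 1.51-fold (0.971 to 2.43) in these ranges.

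**Figure D3:**
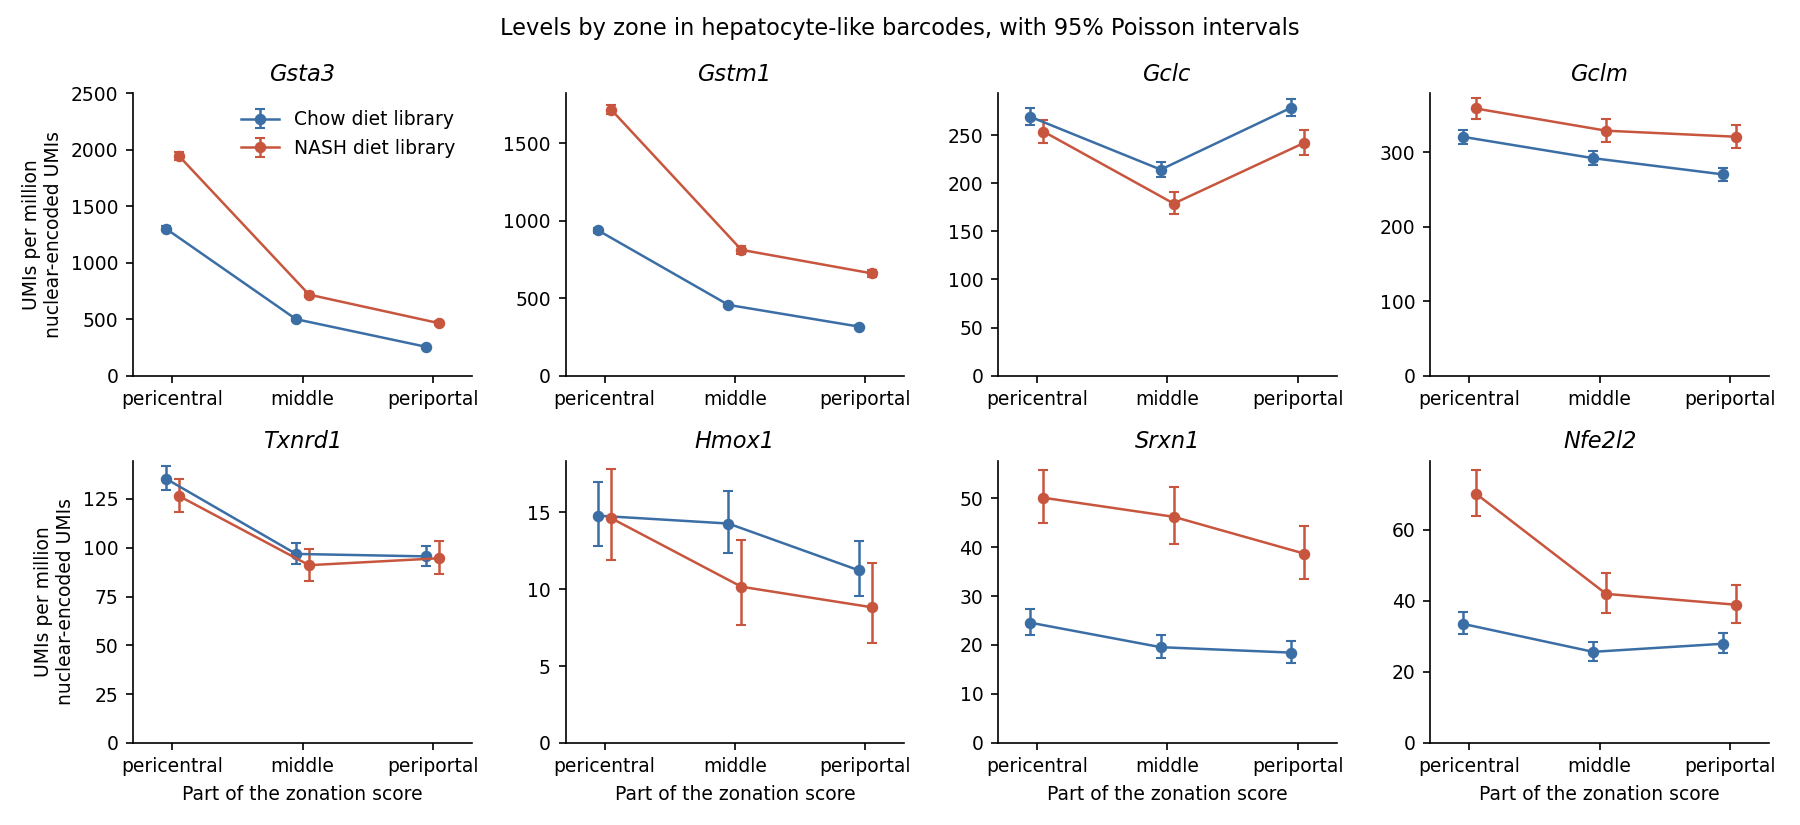
Levels of 8 genes in the pericentral, middle and periportal parts of the hepatocyte-like barcodes (651 chow and 340 or 341 NASH diet barcodes in each), in CPM with 95% Poisson intervals. Gsta3 and Gstm1 are lower toward the periportal part in both libraries, with the NASH diet line above the chow line in each part; Srxn1 and Nfe2l2 also lie above it, and Txnrd1 overlaps.

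Within zones, Gstm1 was 1.83-fold higher in the NASH diet library in the pericentral, 1.78-fold in the middle and 2.08-fold in the periportal part, and Gsta3 was 1.49-fold, 1.43-fold and 1.82-fold higher. Srxn1 was 2.04-fold, 2.36-fold and 2.10-fold higher. Nfe2l2 was 2.09-fold higher in the pericentral part (1.84 to 2.39), 1.64-fold in the middle and 1.39-fold in the periportal part (1.17 to 1.65), and the pericentral and periportal intervals did not overlap; the difference between zones was not tested. Past 2-fold on the log2 scale were 1 of 10 members in the pericentral part (Nfe2l2) against 6.02% of genes tested, 1 in the middle part (Srxn1) against 6.23% and 2 in the periportal part (Gstm1 and Srxn1) against 5.84%. The 4 genes that were higher over all hepatocyte-like barcodes were thus higher in each of the 3 parts. The score was cut within each library, so a part need not be alike in both. Pericentral markers took 1.35% of UMIs in the chow and 2.23% in the NASH diet pericentral part. Periportal markers took 1.26% and 1.65% in the periportal part. The part of this in the ratios was not tested.

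Barcodes were then split by zone and mitochondrial share together, in 6 combinations of 3 zones and the ranges of 10 to 20% and 20 to 30%. The zones were still those cut within each library. Gstm1 was higher in the NASH diet library in 6 of 6, from 1.43-fold to 2.33-fold, and Gsta3 in 6 of 6, from 1.13-fold to 1.77-fold, each with an interval above 1. Srxn1 was higher in 6 of 6, from 1.74-fold to 2.83-fold, and Nfe2l2 had an interval above 1 in 4 of 6, with 1.33-fold (0.864 to 1.98) and 1.19-fold (0.919 to 1.56) in the periportal part. In the pericentral part at 20 to 30%, Gsta3 stood at 1164 CPM in the chow and 1828 in the NASH diet library (1.57-fold, 1.52 to 1.62). In the periportal part at 20 to 30% it stood at 282 and 470 CPM (1.67-fold, 1.53 to 1.82), and in the middle part the ratio was 1.13-fold (1.06 to 1.2). At 20 to 30% the Gsta3 levels thus lay apart in the pericentral and periportal parts and close together in the middle part. Gclc had an interval under 1 in 3 of 6 and above 1 in 0, and Txnrd1 included 1 in all 6.

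**Figure D4:**
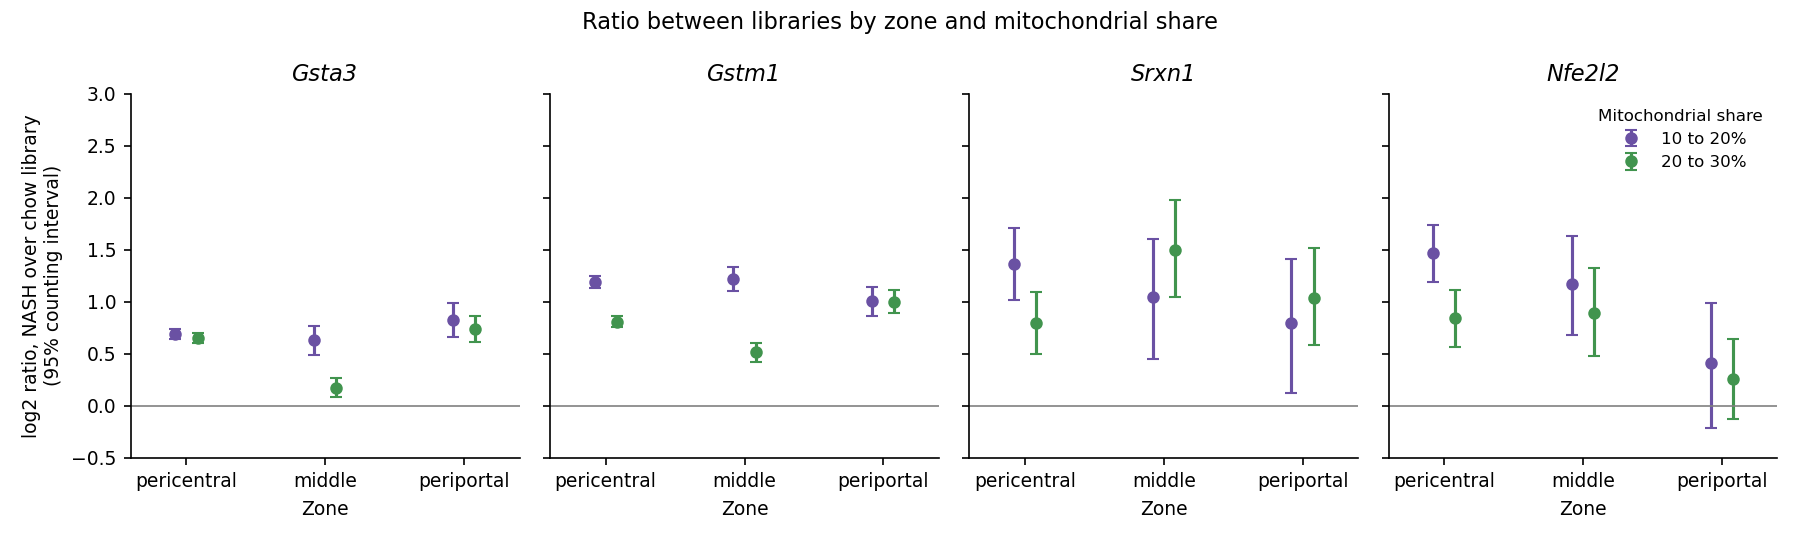
Log2 ratio of the NASH diet over the chow level for 4 genes in hepatocyte-like barcodes, by zone and by mitochondrial share of 10 to 20% or 20 to 30%; bars are 95% counting intervals and the grey line marks equal levels. All Gsta3, Gstm1 and Srxn1 points lie above the line, and the Nfe2l2 points are lowest in the periportal part.

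Over single barcodes with 10 to 30% mitochondrial UMIs, Gsta3 and Gstm1 moved together, with a Pearson r of 0.70 over 1829 chow barcodes and 0.66 over 926 NASH diet barcodes on a log scale. The other 44 of 45 pairs of members had r between -0.12 and 0.24 in the chow and between -0.12 and 0.20 in the NASH diet library. Gsta3 had r of 0.70 and 0.75 with the zonation score, and Gstm1 0.57 and 0.59. These are descriptions of barcodes that share a library, and most other members have few UMIs per barcode.

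Over 12 groups of barcodes (3 zones, intermediate-depth hepatocyte-like, endothelial-like and macrophage-like barcodes in each library), the levels most like Gsta3 among 10161 genes were those of Akr1c6 (Pearson r 0.99) and Cyb5a (0.98). Gstm1 was most like Sult1d1 and Sgk2 (0.97 for both), Gstp1 most like Fh1 (0.98) and Fmc1 (0.95), and Gclc most like Mfsd4b3 (0.97). Gclm was most like Esrp2 and Fxyd1 (0.99 for both), and Hmox1 was most like Ccdc88b (0.995) and Slc7a8 (0.993). Hmox1 stood at 2327 CPM in chow macrophage-like and 14.8 CPM in chow pericentral barcodes, so its r rests largely on contrasts between classes. Other members also differed between classes, such as Gclm, at 321 CPM in chow pericentral and 94.1 CPM in chow endothelial-like barcodes. The part of such contrasts in their r was not tested. Txnrd1 was most like Gsr, the glutathione reductase gene (0.92), and Dapk1 (0.90), Srxn1 most like the clock output gene Dbp (0.91) and Arf4 (0.87), and Nfe2l2 most like Angel2 and BC028528 (0.98 for both). Nqo1 fell under the minimum level.

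Outside hepatocytes, Hmox1 was far higher in macrophage-like than in hepatocyte-like barcodes, whose classes rest on few barcodes. Macrophage-like barcodes, named by at least 3 markers such as Clec4f, C1qa and Vsig4, held 1008 Hmox1 UMIs in 71 chow barcodes, or 2327 CPM (2185 to 2475), and 121 UMIs in 45 NASH diet barcodes, or 888 CPM (737 to 1061). The chow level was 174-fold that of hepatocyte-like barcodes (156 to 193) and the NASH diet level 77.3-fold (61.2 to 97.4). Macrophage-like barcodes were 1.64% of chow barcodes with at most 30% mitochondrial UMIs and held 59.7% of the Hmox1 UMIs among them (57.3 to 62.1); in the NASH diet library they were 1.90% and held 30.1% (25.7 to 34.8). Thinned to 1000 UMIs, an Hmox1 UMI was found in 33 of 53 chow and 11 of 25 NASH diet macrophage-like barcodes, 62.3% and 44.0%, against 1.33% and 0.588% of hepatocyte-like barcodes. Without thinning the shares were 77.5% and 48.9% for macrophage-like and 21.5% and 13.4% for hepatocyte-like barcodes.

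Against hepatocyte-like barcodes, 3 of 10 members were past 2-fold higher in the chow macrophage-like barcodes (Hmox1, Txnrd1 and Nfe2l2) and 5 lower, against 61.6% of genes tested in either direction. In the NASH diet library 2 were higher (Hmox1 and Nfe2l2) and 4 lower, against 61.4%, so passing 2-fold between these classes was usual for any gene. Gsta3, Gstm1, Gclc and Gclm were lower in macrophage-like barcodes in both libraries. Hepatocyte markers were at 4.42% of their hepatocyte-like level in the chow and 6.98% in the NASH diet macrophage-like barcodes, which at the ratios of hepatocyte-like barcodes would bring 30.2 and 77.9 CPM of Gsta3, against 76.2 and 220 measured. At the ratios of the low-depth hepatocyte barcodes it would bring 97.6 and 305, so the Gsta3 level in macrophage-like barcodes cannot be told apart from hepatocyte RNA. For Hmox1 the same figures were at most 2.36 CPM.

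Between diets, macrophage-like Hmox1 was 0.382-fold in the NASH diet library (0.313 to 0.461), and Txnrd1, with 263 and 132 CPM, was 0.502-fold (0.287 to 0.829). Nfe2l2 stood higher in the NASH diet library, at 152 and 301 CPM (1.97-fold, 1.3 to 2.96), but among barcodes with a Clec4f UMI it was 1.49-fold with an interval that includes 1 (0.827 to 2.55, on 61 and 18 UMIs). Past 2-fold were 3 members higher (Gstp1, Gsta3 and Nqo1, each on 30 UMIs or fewer in the NASH diet library) and 1 lower (Hmox1), against 29.7% of genes tested. Nqo1 had 1 UMI in each library here and fell under the minimum level for genes tested, so no difference is read from it. Gstp1 stood at 25.4 and 66.0 CPM, where hepatocyte RNA at the ratios of low-depth barcodes would bring 26.2 and 90.6. Like that of Gsta3, the Gstp1 level in macrophage-like barcodes cannot be told apart from hepatocyte RNA. The makeup of the class also moved: barcodes with a UMI of Clec4f, a marker of resident Kupffer cells, were 59 of 71 in the chow and 23 of 45 in the NASH diet library, and median depth was 4421 and 1168 nuclear-encoded UMIs. Among barcodes with a Clec4f UMI, whose median depths were 4845 and 1644 nuclear-encoded UMIs, Hmox1 stood at 2494 and 1436 CPM (0.576-fold, 0.471 to 0.699), and 1 chow barcode held 139 of 1006 UMIs and 1 NASH diet barcode 35 of 115. Those without one held 2 and 6 Hmox1 UMIs, or 67.0 and 107 CPM. The difference in Hmox1 was thus smaller among barcodes with a Clec4f UMI; the part of depth in it was not tested.

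In endothelial-like barcodes (53 chow and 49 NASH diet), Hmox1 stood at 154 CPM (36 UMIs) and 40.9 CPM (13 UMIs), 0.265-fold (0.129 to 0.513), the 1 member past 2-fold against 25.3% of genes tested. Nfe2l2 stood at 167 and 277 CPM (1.66-fold, 1.13 to 2.48). Macrophage markers summed to 0.0359% and 0.0660% of UMIs in these barcodes, against 3.5% and 2.23% in macrophage-like ones; their part in the Hmox1 level was not tested. Mesenchymal-like barcodes numbered 11 and 14, and single barcodes held 25 of their 52 and 23 of their 38 Hmox1 UMIs, and no comparison is drawn from them. Hmox1 was thus lower in the NASH diet library in both macrophage-like and endothelial-like barcodes.

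**Figure D5:**
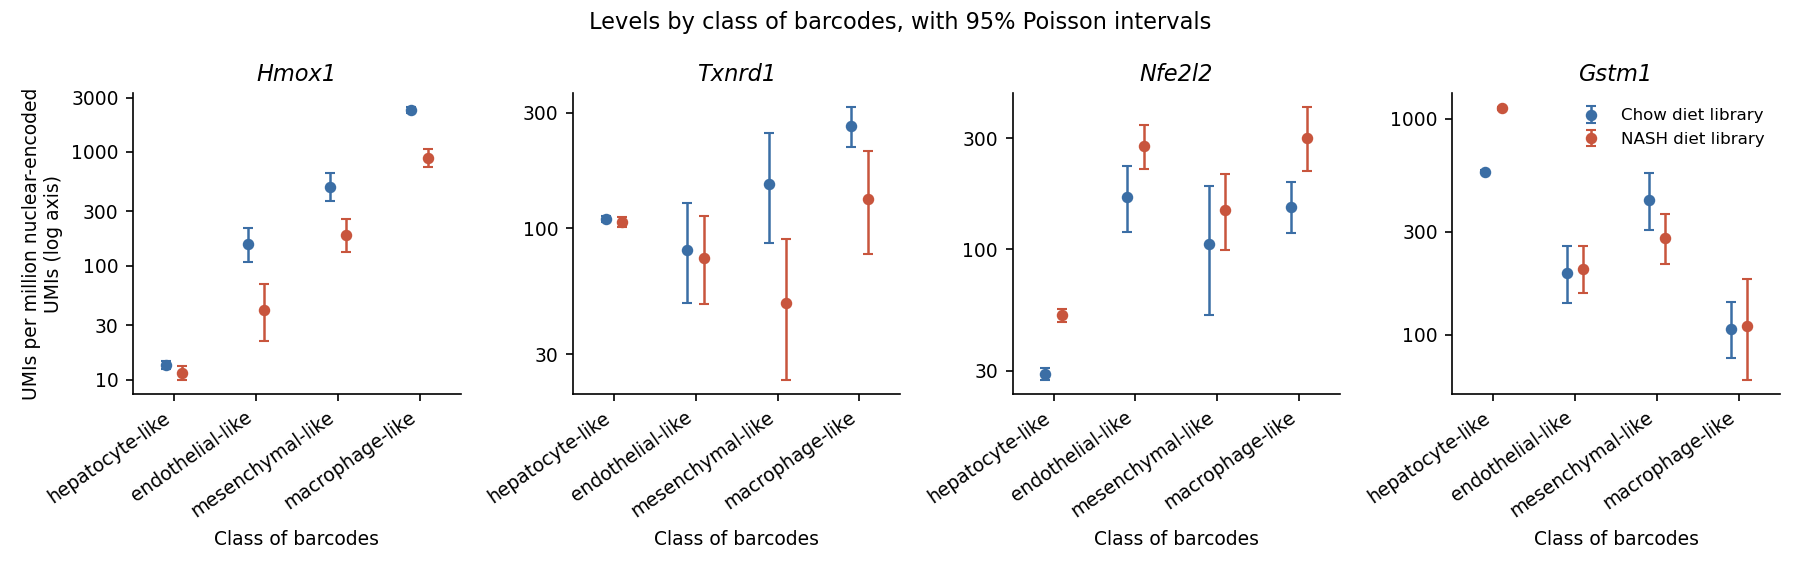
Levels of 4 genes in hepatocyte-like, endothelial-like, mesenchymal-like and macrophage-like barcodes of the chow and NASH diet libraries, in CPM on log axes that differ by panel; bars are 95% Poisson intervals. Against hepatocyte-like barcodes, Hmox1 is higher in macrophage-like barcodes, at 2327 and 888 CPM, as is Nfe2l2, and Gstm1 is lower; the mesenchymal-like points rest on 11 and 14 barcodes.

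The members' neighbours in the pathway, 107 genes in 7 lists without the members, were read in hepatocyte-like barcodes, where 90 passed the minimum level. Their median log2 ratio was 0.34, against 0.17 for all genes, with 11 past 2-fold higher and 2 lower, where 3.40% and 2.08% of all genes tested were. These shares of all genes are the background for each list that follows. The lists were chosen with earlier results of these data known, so their counts are no independent support. Of 17 other glutathione S-transferases tested, 5 were past 2-fold higher and 0 lower, with a median of 0.65. Gsta2 was highest, at 3.63 and 18.7 CPM (5.14-fold), followed by Gstt2 (2.9-fold), Gstt3 (2.76-fold), Gsta4 (2.61-fold) and Gstm2 (2.29-fold). The chow level of Gsta2 was under 5 CPM, so it passed the minimum mean, and entered these counts, only through its NASH diet level. Gstm5 was lowest, at 15.8 and 10.5 CPM, before Gstp3 (log2 ratio -0.08) and Gstm7 (-0.05). The Gsta2 log2 ratio was 1.99 at 15 to 20% mitochondrial share, 1.77 at 20 to 25% and 2.5 at 25 to 30%, and that of Gstm2 was 2.64, 0.40 and -0.65. Pericentral over periportal, Gstm2 had log2 ratios of 4.48 in the chow and 4.81 in the NASH diet library, and Gsta2 -0.11 and -1.20. The ratios by range thus compare unlike mixtures of zones, above all for Gstm2.

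Of 15 genes of glutathione synthesis, recycling and peroxidases, 1 was past 2-fold higher, the glutaredoxin gene Glrx (2.99-fold), and 1 lower, Chac1, which degrades glutathione, at 8.09 and 2.57 CPM (0.318-fold, 0.227 to 0.435). Esd and the peroxidase gene Gpx1 followed with log2 ratios of 0.58 and 0.54, and Cbs and Ggct were lower, at 0.617-fold and 0.805-fold. Among 18 genes of the thioredoxin, peroxiredoxin and superoxide group, 1 was past 2-fold higher, the thioredoxin inhibitor gene Txnip (3.00-fold), with Prdx6 at 1.89-fold and Msra at 1.84-fold. Prdx4 was lowest there, with a log2 ratio of -0.35, and Prdx1 and Sod2, at -0.08 and -0.04, were the next lowest.

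Of 6 genes of NADPH supply, 1 was past 2-fold higher, the isocitrate dehydrogenase gene Idh2 (3.04-fold), and Pgd was lowest (0.605-fold), before Idh1 (-0.26) and Tkt (-0.10); Taldo1 and Me1 stood at 0.13 and 0.05. Of 9 genes of heme breakdown and ferritin, Alas1, which starts heme synthesis, was 2.18-fold higher, the ferritin genes Fth1 and Ftl1 stood at 0.55 and 0.54, and the heme carrier gene Hpx was 0.229-fold, at 16312 and 3734 CPM. Hmox2 and Blvra stood at 0.00 and 0.01. None of 11 genes for NRF2 regulators was past 2-fold, with Mafg at 0.55, Keap1 at 0.30, Cul3 at 0.25 and Crebbp at -0.11, Sqstm1 at -0.05 and Trim25 at 0.04. Of 14 genes of NRF2-linked detoxification, Cyp2a5 was 11.6-fold higher (10.6 to 12.8). Its log2 ratios were 4.62, 3.41 and 1.16 at 15 to 20%, 20 to 25% and 25 to 30% mitochondrial share. Pericentral over periportal, Cyp2a5 had log2 ratios of 5.08 in the chow and 7.14 in the NASH diet library. Its ratios by range thus compare unlike mixtures of zones, and its ratio between diets within zones is not given. The export pump gene Abcc3 was 2.22-fold higher and Ephx1 2-fold (log2 ratio 0.98). Osgin1, Aldh1a7 and Ugdh were lowest there, with log2 ratios of -0.42, -0.23 and -0.21. The counts of these lists are descriptions.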

How the data were processed

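Single-cell RNA was measured in 1 chow and 1 NASH diet library. The authors deposited UMI counts per gene and barcode, made with Cell Ranger, which the submitters' processing notes give as 3.1.0 and the file headers as 3.0.2; the notes also name mm10 and Seurat with no role. The kit is given as 10x 3' version 3 per the labels' protocols, which was not checked. A deposited merged matrix, which holds 86.4% of the chow library's own UMIs, served as an alternative.

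Barcodes with at least 200 genes and at most 30% mitochondrial UMIs were named by marker shares, and nothing was clustered for the main values. The gates were set after the data were seen. Hepatocyte-like barcodes are defined in the text; other classes needed at least 3 of their markers, 0.5% of UMIs in them and under 5% in hepatocyte markers. Counts were summed per library and class and divided by the nuclear-encoded total, and log2 ratios used a pseudocount of 1 CPM. Doublets were not removed for the main values, because Scrublet called 0 barcodes at its own threshold. Of the hepatocyte-like barcodes, 349 chow and 166 NASH diet ones lay within 0.1 of a cut of the zonation score.

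With 1 library per diet no test was run; exact 95% intervals (scipy 1.17.1) cover counting error only, and "past 2-fold" is a call of size. The intervals and calls were tried on simulated Poisson counts, which cannot show how the intervals cover counts that vary more. Thinned to 5000 UMIs, chow hepatocyte-like barcodes had a variance over mean of 6.08 for Gsta3 and 6.39 for Gstm1. For Nfe2l2 it was 0.98. The 10 genes and the pathway lists were chosen with earlier results of these data known. All 10 genes are named; from each list the 3 highest and 3 lowest ratios among genes of at least 5 CPM are named, and likeness names the 2 genes of highest correlation, of which 1 is not reported here. The place of Gstp1 and the contrasts of Gstm2 and Gsta2 by range were singled out after their values were seen. Nnt matched 2 identifiers and was left out. Alternatives covered the denominator, depth, mitochondrial limit, doublets, Leiden clusters (scanpy 1.11.5), the merged matrix, the pseudocount, the zonation score and single barcodes.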

Additional observations from a re-analysis of the deposited data

Results flagged for a closer look

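Some members had ratios between the diet libraries in opposite directions in parts of the data, each with a counting interval clear of 1; the differences between parts were not tested. Values are log2 ratios of the NASH diet over the chow library.

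Gstp1 was at 0.77 in the middle part of the zonation score, and at -0.32 in the pericentral and -0.27 in the periportal part. With barcodes of 10 to 30% mitochondrial share only, the middle part gave -0.01, and with the score from summed UMIs the periportal part gave 0.49. The periportal ratio was also above 1 at 10 to 20% mitochondrial share, at 1.22-fold (1 to 1.48), and at 20 to 30%, at 1.05-fold (0.887 to 1.24).

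Gsta3 was at 0.71 in hepatocyte-like and 1.52 in macrophage-like barcodes, and at -0.76 in endothelial-like barcodes. The macrophage-like and endothelial-like levels cannot be told apart from hepatocyte RNA: in endothelial-like barcodes Gsta3 stood at 150 and 88.1 CPM, where hepatocyte RNA at the ratios of low-depth barcodes would bring 145 and 139. By mitochondrial share it was at -0.67 at 0 to 5%, 1.38 at 5 to 10%, 1.91 at 10 to 15%, 1.31 at 15 to 20%, 0.33 at 20 to 25% and -0.24 at 30 to 50%. Gstm1 was at -0.31 at 0 to 5%, 0.78 at 5 to 10%, 2.25 at 10 to 15%, 1.59 at 15 to 20%, 0.68 at 20 to 25% and 0.19 at 25 to 30%.

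Gclc was at 0.60 at 10 to 15%, and at -0.85 at 0 to 5%, -0.18 at 20 to 25%, -0.25 at 25 to 30% and -0.39 at 30 to 50%. The value at 10 to 15% became 0.19 with the median of ratios over genes and -0.10 without the barcode that held most of its UMIs in each library. Hmox1 was at 2.77 at 10 to 15% and -1.03 at 15 to 20%.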

How the results depend on the processing

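No paired analysis was possible because there was 1 library per diet. Of 390 log2 ratios of members under alternative settings, 299 stayed within the counting interval of the main value, 88 moved outside it and 3 past 2-fold reversed; 368 kept their sign, and those that did not include Gclc at 10 to 15%, Gstp1 in the middle and periportal parts and Gsta3 at 25 to 30%. In hepatocyte-like barcodes the count of members past 2-fold higher, 1, became 0 with the median of ratios over genes or a pseudocount of 10 CPM, 2 with a minimum of 10000 UMIs, with Leiden clusters or with mitochondrial shares of 10 to 30% only, and 4 with a mitochondrial limit of 20%. At 25 to 30% the count of 1 became 0 with the median of ratios. The pericentral count of 1 became 2 with the score from summed UMIs or with shares of 10 to 30% only, the middle count of 1 became 0 with that score, and the NASH diet count of members lower in the pericentral part, 0, became 1 with it (Gstp1). In macrophage-like barcodes 3 higher became 1 with at least 5 markers, and 1 lower became 2 with at least 5 markers, without the top barcode or with a Clec4f UMI only; in endothelial-like barcodes 1 lower became 2 without the top barcode. Nqo1, on few UMIs, reversed to -0.27 at 10 to 15% without its top barcode, and in macrophage-like barcodes to -1.76 with at least 5 markers and -1.80 with a Clec4f UMI only. Macrophage-like Nfe2l2, at 0.98, ran from 0.38 to 0.67 over 3 alternatives. The cause of these changes was not tested. The share of all genes past 2-fold under each setting is not given here, so the changed counts are not read as particular to the members. In hepatocyte-like barcodes the log2 ratio ran from 0.52 to 1.21 for Gsta3, 0.79 to 1.45 for Gstm1, 0.85 to 1.13 for Srxn1, 0.65 to 1.12 for Nfe2l2 and -0.24 to 0.96 for Gstp1 over 14 alternatives. The settings with 10 to 30% only, a Clec4f UMI only and the top barcode left out at 10 to 15% were chosen after seeing the data. Depth limits Nqo1 and all classes other than hepatocyte-like barcodes.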
